A study of Rattus norvegicus with 6 samples.

Results

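Chromatin modifiers are the enzymes and ATP-driven machines that write, erase and move the marks and nucleosomes on DNA. Histone methyltransferases and demethylases set the methyl groups on histone tails, deacetylases take off acetyl groups, DNA methyltransferases and TET dioxygenases add methyl groups to cytosine and oxidise them, and CHD and SWI/SNF complexes slide or evict nucleosomes. In neurons these proteins are known for shaping activity-dependent transcription and memory, and several of their genes are dosage-sensitive in neurodevelopmental disorders.

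The genes described here were all features whose symbol begins with Kdm1 to Kdm8, Kmt2 or Kmt5, Hdac, Sirt1 to Sirt7, Setd with a number, Chd1 to Chd9, Smarca to Smarce, Arid1 to Arid5, Dnmt1 or Dnmt3, or Tet1 to Tet3, outside chromosomes X and Y. This rule uses names and position and no measured value. It found 84 of 32662 features. Their levels were measured by poly(A)-selected RNA-seq in amygdala, as FPKM, which counts fragments relative to transcript length and library size. The compared groups were B-CTRL, 3 libraries of Sprague Dawley rats (an outbred strain) labelled as behaviourally tested, in a study of social play, and NB-CTRL, 3 libraries of rats of that strain labelled as not tested. All were labelled male and postnatal day 38, and no drug, allele or other treatment is named for either group. Whether each library came from its own animal is not in the labels, and the p-values reflect variation among libraries, part of which may be technical.

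Before the results, some facts about the libraries bear on them. B-CTRL 1 went against its label: the Y-linked histone demethylase gene Kdm5d stood at 0.0286 FPKM there and at 8.37 to 10.2 FPKM in the other libraries. B-CTRL 1 also held choroid plexus transcripts, with Ttr at 7142 FPKM against at most 27.2 FPKM elsewhere. Of the 7 choroid plexus markers, 6 were detected and Otx2 was listed at 0 in each library. B-CTRL 2 had the lowest values for long loci. The median deviation of features in the longest eighth of loci minus that in the shortest eighth was 0.022, -0.54 and -0.046 log2 in B-CTRL 1, 2 and 3, against 0.17, 0.18 and 0.23 in NB-CTRL 1, 2 and 3. Depth relative to NB-CTRL 1, estimated from the steps between low values, was 1.09, 0.719 and 1.39 in B-CTRL 1, 2 and 3, against 1.63 and 1.63 in NB-CTRL 2 and 3, so absolute depth is unknown. Amygdala has no marker of its own here, and the levels of striatal and pallial neuron markers differed widely among libraries of a group (7 striatal markers summed to 1723 to 5719 FPKM in B-CTRL, against 1724 to 3977 FPKM in NB-CTRL).

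The comparison asked whether chromatin modifier transcripts stand at other levels in B-CTRL than in NB-CTRL amygdala. Most members had lower means in B-CTRL, and most of these differences were smaller without B-CTRL 2. The lowest family medians were those of the Dnmt and Tet genes (-0.57 log2), the Arid genes (-0.52), the CHD remodellers (-0.42) and the Kmt and Setd methyltransferases (-0.38). The sirtuins and the class I deacetylases had medians of 0.13 and 0.14, which were 0.017 and 0.033 without B-CTRL 2. No single gene passed the multiple-testing threshold. With limma, a moderated linear model, 0 of the 76 tested members and 0 of all 14043 tested features (0%) had a Benjamini-Hochberg adjusted p under 0.05, and the smallest adjusted p of a member was 0.400. At an unadjusted limma p under 0.05, 15 of 76 members were lower in B-CTRL, beside 6.07% of all tested features, and 0 were higher, beside 6.25%. The members' median log2 difference (B-CTRL minus NB-CTRL, on log2(FPKM + 0.5)) was -0.28, with quartiles of -0.53 and 0.039, and 51 of 76 lay below 0. Over all tested features the median was -0.0024, the quartiles were -0.26 and 0.22, 50.3% lay below 0 and 49.7% above.

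Counting libraries instead of p-values, 27 of 76 members had all B-CTRL values below all NB-CTRL values, beside 12% of tested features. Sirt3 was the 1 member with all B-CTRL values above, beside 11.7%. An exact permutation test of 3 against 3 cannot give less than 0.1, so none is given for single genes. B-CTRL 1 lay below all NB-CTRL values for 52 members (34.8% of features did), B-CTRL 2 for 50 (38.3%) and B-CTRL 3 for 34 (32.2%). Members lay above all NB-CTRL values 10 times in B-CTRL 1 (35.9% of features), 16 times in B-CTRL 2 (39.3%) and 18 times in B-CTRL 3 (31.4%). The members' score, their median log2 deviation from the 6-library mean, was -0.15, -0.33 and 0.10 in B-CTRL 1, 2 and 3, against 0.17, 0.10 and 0.14 in NB-CTRL 1, 2 and 3. B-CTRL 3 lay just above NB-CTRL 2, and the lower score belonged to B-CTRL 1 and 2. Without B-CTRL 1 the median was -0.29 with 9 members lower (6.89% of features) and 1 higher (6.99%) at an unadjusted p under 0.05, and 31 members had B-CTRL wholly below NB-CTRL (19.3% of features) and 10 wholly above (19.6%). Without B-CTRL 2 the median was -0.14 with 9 lower (4.81% of features) and 0 higher (3.99%), and 27 members had B-CTRL wholly below (14.6%) and 3 wholly above (13.6%). Without B-CTRL 3 the median was -0.40 with 32 lower (13.1% of features) and 1 higher (12.9%), and 41 members had B-CTRL wholly below (23%) and 4 wholly above (24%). Without NB-CTRL 1, 2 or 3 the count lower at that p was 4, 4 or 3, beside 3.03%, 1.93% or 3.33% of features, and the medians were -0.25, -0.31 and -0.27. Of the 51 members with a lower mean, 48 were nearer 0 without B-CTRL 2, and 7 of the 15 with an unadjusted p under 0.05 were then nearer 0 by over 1.5 times.

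**Figure D1:**
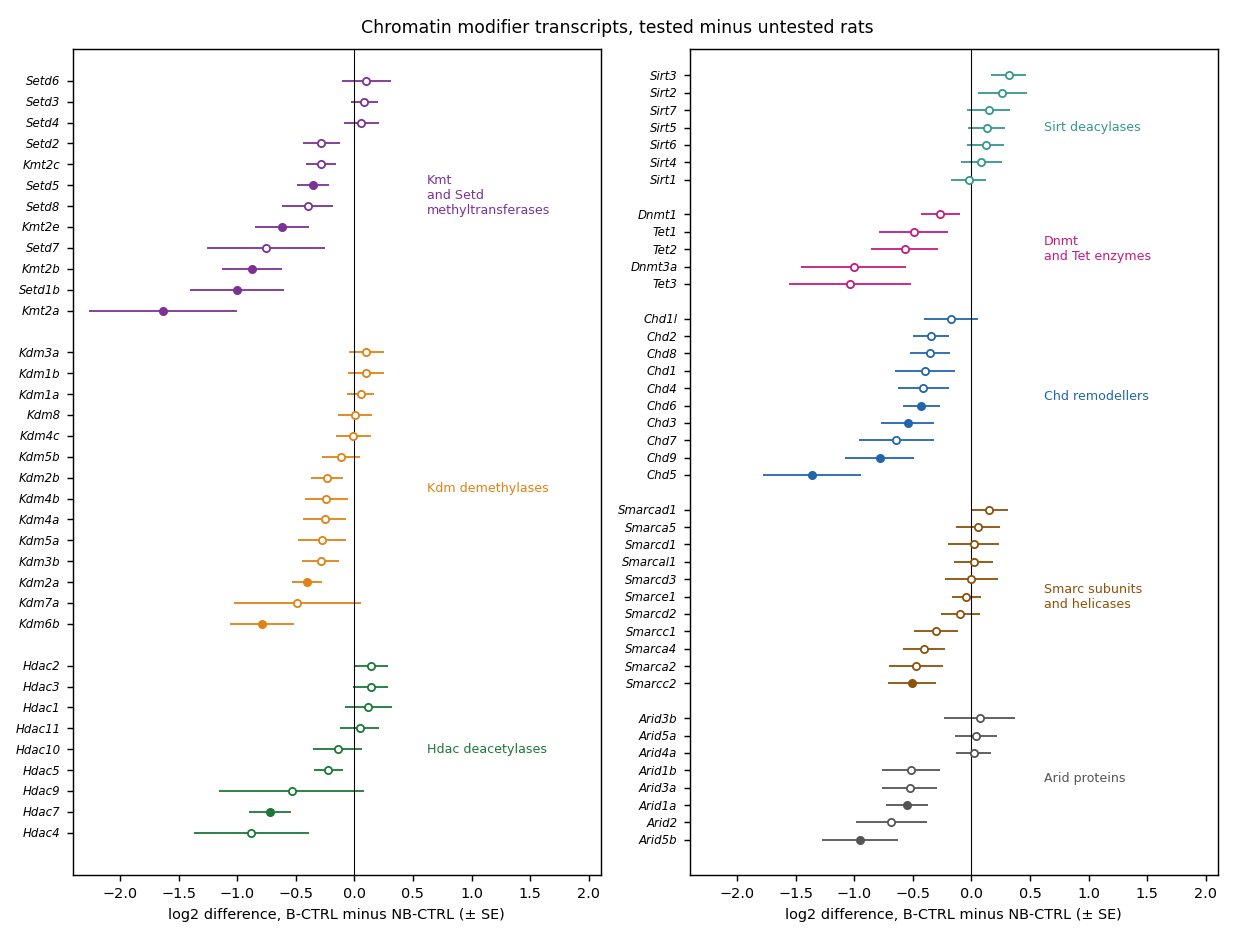
Log2 difference (B-CTRL minus NB-CTRL, x axis) of each of the 76 tested members, grouped by family, with bars of 1 SE and filled points for an unadjusted limma p under 0.05. The 15 filled points all lie left of 0, and 6 of 7 sirtuins lie right of it.

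Promoter sequences are given as a description of the genes themselves. Of 84 members, 62 matched exactly 1 entry of the RefSeq promoter table (build GRCr8), of which the 250 bases before the annotated start were used. A GC box, the Sp-family motif GGGCGG on either strand, was found in 43 of these 62 (69.4%), and in 30.5% of all 33365 promoters. Among the 17 matched members with B-CTRL wholly below NB-CTRL it was found in 13 (76.5%). The full cAMP response element TGACGTCA was in 0 of 62 and in 1.59% of all promoters, and its half-site TGACG, on either strand and counted also within the full element, was in 24.2% and 18.2%. The motif CCAAT on either strand was in 32.3% of the members' promoters and in 34% of all. The members' windows had a median of 62% G and C, against 51.6% in all promoters, and the shares were not matched for base composition. The 4 members with the lowest unadjusted p that have a locus and a promoter entry of their own are shown, on the minus strand of chr7:130841018-130841267, chr1:94968442-94968691, chr5:151265387-151265636 and chr10:54641015-54641264 in GRCr8 in the order printed, with GC boxes in capitals:
Hdac7: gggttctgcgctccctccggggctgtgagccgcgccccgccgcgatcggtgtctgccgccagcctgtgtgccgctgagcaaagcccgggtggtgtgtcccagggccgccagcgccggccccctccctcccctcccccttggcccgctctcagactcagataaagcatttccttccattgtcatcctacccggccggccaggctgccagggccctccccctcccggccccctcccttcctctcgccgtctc
Kmt2b: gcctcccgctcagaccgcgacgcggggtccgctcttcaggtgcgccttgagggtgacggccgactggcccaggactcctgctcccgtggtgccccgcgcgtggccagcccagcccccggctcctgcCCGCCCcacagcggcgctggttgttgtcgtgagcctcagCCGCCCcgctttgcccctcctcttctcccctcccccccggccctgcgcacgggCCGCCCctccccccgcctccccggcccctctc
Arid1a: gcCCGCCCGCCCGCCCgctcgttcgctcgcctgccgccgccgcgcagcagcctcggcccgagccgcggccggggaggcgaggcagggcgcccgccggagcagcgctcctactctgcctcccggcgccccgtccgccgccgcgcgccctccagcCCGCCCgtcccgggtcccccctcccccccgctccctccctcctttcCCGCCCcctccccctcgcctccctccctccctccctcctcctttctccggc
Kdm6b: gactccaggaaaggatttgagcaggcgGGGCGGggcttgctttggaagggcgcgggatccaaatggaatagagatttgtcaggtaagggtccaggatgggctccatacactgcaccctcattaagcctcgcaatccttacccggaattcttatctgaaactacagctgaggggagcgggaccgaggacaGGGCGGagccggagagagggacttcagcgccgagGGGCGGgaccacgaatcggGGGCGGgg
Arid1a held 5 GC boxes, of which some overlap, Kdm6b 4, Kmt2b 3 and Hdac7 0. None of the 4 held a full cAMP response element. In build rn6, that of the deposited table, Hdac7 (ENSRNOG00000055597) lies at chromosome 7, 139281186 to 139318455, Kmt2b (ENSRNOG00000055525) at chromosome 1, 89023199 to 89042176, Arid1a (ENSRNOG00000006137) at chromosome 5, 151904683 to 151977636 and Kdm6b (ENSRNOG00000037613) at chromosome 10, 56001798 to 56008885.

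Among the writers, 9 of 12 Kmt and Setd methyltransferases were lower on average in B-CTRL, and the family median was -0.38 log2 (-0.23 without B-CTRL 2). Kmt2a, Setd1b and Kmt2b had the lowest values of the family. They are described with Kmt2e and Kmt2c as some of the genes linked to methylation of lysine 4 of histone H3 at promoters and enhancers. This grouping was written down after the values were seen and leaves out Setd7. Kmt2a, which encodes the MLL methyltransferase, had 5.78, 1.09 and 10.05 FPKM in B-CTRL 1, 2 and 3, against 14.3, 13.8 and 14.4 FPKM in NB-CTRL 1, 2 and 3. Its B-CTRL values were spread widely and all lay below the narrow NB-CTRL range, with a log2 difference of -1.63 ± 0.63 (-1.84 without B-CTRL 1 and -0.85 without B-CTRL 2). Log2 differences are given ± SE, and FPKM means ± SD with n = 3 in each group. Kmt2b, its close paralog, had 5.64, 4.57 and 9.62 FPKM in B-CTRL 1, 2 and 3, against 12.5, 11.5 and 11.999 FPKM in NB-CTRL 1, 2 and 3. The groups did not overlap, and the log2 difference was -0.87 ± 0.26 (-0.80 without B-CTRL 1 and -0.66 without B-CTRL 2). Kmt2e, whose protein binds methylated histone tails and has no shown methyltransferase activity of its own in mammals, had 28.1, 22.5 and 41.6 FPKM in B-CTRL 1, 2 and 3, against 50.8, 42.1 and 45.3 FPKM in NB-CTRL 1, 2 and 3. Its B-CTRL 3 value lay just under NB-CTRL 2, and the log2 difference was -0.62 ± 0.23 (-0.58 without B-CTRL 1 and -0.42 without B-CTRL 2).

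Setd1b, the catalytic subunit of a COMPASS complex, had 3.05, 1.24 and 5.04 FPKM in B-CTRL 1, 2 and 3, against 6.15, 5.30 and 6.61 FPKM in NB-CTRL 1, 2 and 3, a log2 difference of -1.00 ± 0.40 (-1.06 without B-CTRL 1 and -0.55 without B-CTRL 2). Kmt2c, an enhancer methyltransferase, differed less, at 9.09 ± 0.343 FPKM in B-CTRL and 11.2 ± 0.509 FPKM in NB-CTRL and -0.28 ± 0.13. The Kmt2c entry spans only 10.2 kb, and whether it holds the whole gene was not checked. All 5 of these genes had B-CTRL wholly below NB-CTRL, as did 12% of all tested features. The group was formed after the values were seen, so this count only describes the genes chosen. The score of the 5 genes was -0.39, -0.86 and 0.17 in B-CTRL 1, 2 and 3, against 0.49, 0.34 and 0.44 in NB-CTRL 1, 2 and 3. Setd5, a SET-domain gene linked to intellectual disability in humans, stood at 19.6 ± 2.40 FPKM in B-CTRL and 25.1 ± 1.25 FPKM in NB-CTRL, with a log2 difference of -0.36 ± 0.14. Setd2, the methyltransferase for lysine 36 of histone H3, had -0.28 ± 0.16. The family's most abundant transcript, Setd3, encodes an actin histidine methyltransferase and did not share the lower level (40.5, 43.0 and 46.6 FPKM in B-CTRL 1, 2 and 3, against 41.7, 39.1 and 41.7 FPKM in NB-CTRL 1, 2 and 3, log2 difference 0.084 ± 0.12). Setd7, a monomethyltransferase not placed in the group of 5, overlapped between B-CTRL and NB-CTRL. It stood at 23.7, 6.19 and 26.8 FPKM in B-CTRL 1, 2 and 3, against 29.2, 25.7 and 26.6 FPKM in NB-CTRL 1, 2 and 3. Its log2 difference of -0.75 ± 0.51 was -0.11 without B-CTRL 2. Setd8, which monomethylates lysine 20 of histone H4, had -0.40 ± 0.21. Without B-CTRL 2, Setd8 had -0.18 and Setd2 had -0.15. Setd4 and Setd6 lay above 0 (0.059 ± 0.15 and 0.10 ± 0.21), and Setd6 methylates a subunit of NF-kappaB.

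**Figure D2:**
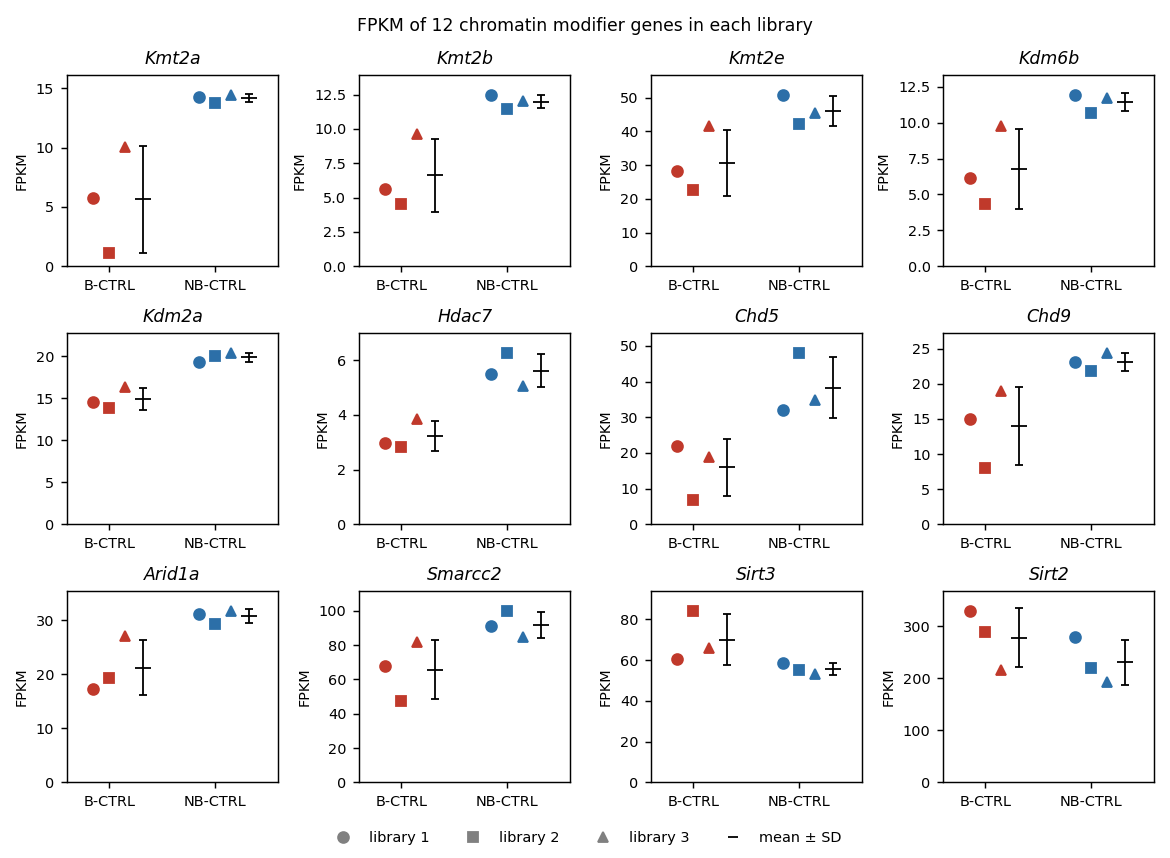
FPKM (y axis, from 0) of 12 members in each library of B-CTRL (red) and NB-CTRL (blue), with the mean and SD beside the points. In 10 of the 12 genes all red points lie below all blue ones, in Sirt3 all lie above, and in Sirt2 the groups overlap. The 12 genes were picked with their values known, so this count only describes them. Of all 76 tested members, 27 had B-CTRL wholly below NB-CTRL, beside 12% of tested features, and 1 wholly above, beside 11.7%.

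All 5 tested DNA methylation genes were lower on average, with a median of -0.57 that was -0.26 without B-CTRL 2. Dnmt3a, the main de novo DNA methyltransferase of neurons, had 6.87, 2.25 and 9.12 FPKM in B-CTRL 1, 2 and 3, against 13.3, 9.32 and 11.1 FPKM in NB-CTRL 1, 2 and 3, with a log2 difference of -1.00 ± 0.45 (-1.18 without B-CTRL 1 and -0.47 without B-CTRL 2). B-CTRL 3 lay just under NB-CTRL 2. The maintenance methyltransferase gene Dnmt1 overlapped between groups (9.44 ± 1.42 FPKM in B-CTRL and 11.4 ± 1.25 FPKM in NB-CTRL, log2 difference -0.26 ± 0.17). All TET dioxygenase genes, whose products oxidise methylcytosine, had lower means. Tet3 stood at 2.54, 0.698 and 5.05 FPKM in B-CTRL 1, 2 and 3, against 6.001, 4.18 and 5.22 FPKM in NB-CTRL 1, 2 and 3, and NB-CTRL 2 lay below B-CTRL 3. Its log2 difference was -1.03 ± 0.52, that of Tet2 -0.57 ± 0.29 and that of Tet1, the lowest of the tested members in level, -0.49 ± 0.29. Without B-CTRL 2 these 3 values were -0.44, -0.26 and -0.22.

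Among the erasers of histone methylation, 10 of 14 tested Kdm genes were lower on average, with a median of -0.24 (-0.062 without B-CTRL 2). Kdm6b, which removes the repressive methylation that Polycomb places and is induced by neuronal and inflammatory signals, had 6.13, 4.34 and 9.79 FPKM in B-CTRL 1, 2 and 3, against 11.9, 10.7 and 11.7 FPKM in NB-CTRL 1, 2 and 3. All B-CTRL values lay below the NB-CTRL range, and the log2 difference was -0.79 ± 0.27 (-0.76 without B-CTRL 1 and -0.53 without B-CTRL 2). Kdm2a, a demethylase that binds unmethylated CpG islands, had 14.6, 13.9 and 16.4 FPKM in B-CTRL 1, 2 and 3, against 19.3, 20.0 and 20.4 FPKM in NB-CTRL 1, 2 and 3. The groups did not overlap, with a log2 difference of -0.40 ± 0.13 and a range of -0.47 to -0.35 over the refits that leave out 1 library. Its paralog Kdm2b, a Polycomb recruiter, did not overlap either (5.19 ± 0.160 FPKM in B-CTRL and 6.18 ± 0.301 FPKM in NB-CTRL, log2 difference -0.23 ± 0.14).

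The other Kdm genes lay near 0 or overlapped. Kdm4b, the family's most abundant transcript, had 31.8 ± 7.19 FPKM in B-CTRL and 37.2 ± 3.94 FPKM in NB-CTRL and a log2 difference of -0.24 ± 0.18. Kdm5a and Kdm5b, which demethylate lysine 4 of histone H3 and so oppose the Kmt2 enzymes, had -0.28 ± 0.20 and -0.11 ± 0.16, and -0.063 and -0.061 without B-CTRL 2. The LSD1 gene Kdm1a, a flavin-dependent demethylase of the CoREST complex, stood at 32.2 ± 2.06 FPKM in B-CTRL and 30.9 ± 1.06 FPKM in NB-CTRL, a log2 difference of 0.055 ± 0.12. Kdm3a (19.9, 19.8 and 21.1 FPKM in B-CTRL 1, 2 and 3, against 19.7, 15.9 and 21.2 FPKM in NB-CTRL 1, 2 and 3) lay slightly above 0 at 0.10 ± 0.15, and its sign turned without NB-CTRL 2 (-0.016). Kdm7a had 3.94, 0.636 and 4.52 FPKM in B-CTRL 1, 2 and 3, against 3.82, 3.15 and 3.90 FPKM in NB-CTRL 1, 2 and 3, so its log2 difference of -0.49 ± 0.55 rested on B-CTRL 2, and without that library it was 0.20.

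The histone deacetylase genes are described by textbook classes, written down after the values were seen. Hdac10, in neither class I nor class IIa, had -0.14 ± 0.21, which was 0.082 without B-CTRL 1. Class I genes, whose products are the nuclear catalytic subunits of the Sin3, NuRD, CoREST and NCoR corepressors, lay slightly above 0. Their median of 0.14 was 0.033 without B-CTRL 2. Hdac2, a regulator of synaptic plasticity genes, had 62.2, 75.9 and 77.7 FPKM in B-CTRL 1, 2 and 3, against 68.4, 57.2 and 69.6 FPKM in NB-CTRL 1, 2 and 3, with overlapping groups and a log2 difference of 0.14 ± 0.15. Hdac3, the NCoR deacetylase, had 54.5, 75.8 and 60.1 FPKM in B-CTRL 1, 2 and 3, against 55.7, 59.5 and 55.8 FPKM in NB-CTRL 1, 2 and 3, a log2 difference of 0.14 ± 0.15, which was 0.0066 without B-CTRL 2. Hdac1 had 20.0 ± 4.797 FPKM in B-CTRL and 17.999 ± 1.55 FPKM in NB-CTRL and 0.12 ± 0.20.

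Class IIa genes encode deacetylases that shuttle between nucleus and cytoplasm with calcium signals and repress MEF2 targets, and all 4 had lower means, with a median of -0.63 (-0.24 without B-CTRL 2). Hdac7 had the lowest unadjusted p of all members and the values 2.99, 2.84 and 3.87 FPKM in B-CTRL 1, 2 and 3, against 5.503, 6.26 and 5.07 FPKM in NB-CTRL 1, 2 and 3. The groups stood apart, with a log2 difference of -0.72 ± 0.18 and a range of -0.84 to -0.64 over the refits that leave out 1 library. Hdac5 also did not overlap, at 50.3 ± 4.97 FPKM in B-CTRL and 58.5 ± 1.56 FPKM in NB-CTRL, with a log2 difference of -0.22 ± 0.12. Hdac4 had 5.25, 1.13 and 5.58 FPKM in B-CTRL 1, 2 and 3, against 6.29, 6.45 and 7.03 FPKM in NB-CTRL 1, 2 and 3, a log2 difference of -0.88 ± 0.49 that was -0.26 without B-CTRL 2. Hdac9 was highest in B-CTRL 1 and lowest in B-CTRL 2, at 8.03, 0.907 and 2.19 FPKM in B-CTRL 1, 2 and 3, against 2.96, 5.34 and 4.35 FPKM in NB-CTRL 1, 2 and 3, and had -0.53 ± 0.62 (without B-CTRL 2, 0.056). Hdac11, the class IV enzyme known to be made in oligodendrocytes, was the second most abundant member (157, 217 and 207 FPKM in B-CTRL 1, 2 and 3, against 197, 198 and 164 FPKM in NB-CTRL 1, 2 and 3) and had a log2 difference of 0.047 ± 0.17, which was -0.16 under quantile normalization.

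Sirtuins, which couple removal of acyl groups to NAD, were the 1 family with a median above 0, at 0.13, and 6 of 7 genes lay above 0. The median was 0.017 without B-CTRL 2 and 0.26 without B-CTRL 1. Sirt3, the main mitochondrial deacetylase, had 60.4, 84.0 and 65.9 FPKM in B-CTRL 1, 2 and 3, against 58.6, 55.2 and 53.2 FPKM in NB-CTRL 1, 2 and 3. Its log2 difference of 0.32 ± 0.15 (0.42 without B-CTRL 1 and 0.18 without B-CTRL 2) was the largest positive value of any member, and B-CTRL 2 was its highest library. Sirt5, the mitochondrial desuccinylase and next in abundance after Hdac11, had 91.6, 134 and 115 FPKM in B-CTRL 1, 2 and 3, against 101.1, 105 and 100.6 FPKM in NB-CTRL 1, 2 and 3. The groups overlapped, and its log2 difference of 0.13 ± 0.16 was 0.0061 without B-CTRL 2 and -0.016 under quantile normalization. Sirt6 and Sirt7, nuclear enzymes of chromatin and of the nucleolus, had 0.12 ± 0.16 and 0.15 ± 0.18 (0.017 and 0.11 without B-CTRL 2), and Sirt1 lay at -0.025 ± 0.15 (5.52 ± 0.321 FPKM in B-CTRL and 5.64 ± 0.594 FPKM in NB-CTRL). The family score was -0.15, 0.27 and 0.084 in B-CTRL 1, 2 and 3, against 0.010, -0.11 and -0.10 in NB-CTRL 1, 2 and 3. B-CTRL 1 had the lowest score of the 6 libraries.

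Sirt2, a largely cytoplasmic tubulin deacetylase of myelin-forming cells, had the highest level of any member, with 329, 289 and 217 FPKM in B-CTRL 1, 2 and 3, against 279, 219 and 194 FPKM in NB-CTRL 1, 2 and 3. Its log2 difference was 0.27 ± 0.21, with overlap. The 3 libraries in which it was highest, B-CTRL 1, B-CTRL 2 and NB-CTRL 1, were also those with the highest summed level of 6 oligodendrocyte markers. That sum was 15918, 13299 and 8152 FPKM in B-CTRL 1, 2 and 3, against 13537, 8338 and 6913 FPKM in NB-CTRL 1, 2 and 3. The part of this in the Sirt2 level was not tested, and in tissue more cells of a type cannot be told from more RNA per cell.

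All 10 CHD remodeller genes had lower means in B-CTRL, with a median of -0.42. This was the largest family to lie wholly on 1 side of 0, but without B-CTRL 2 Chd1l lay above 0. Chd5, a neuronal NuRD ATPase, had 22.1, 6.95 and 19.0 FPKM in B-CTRL 1, 2 and 3, against 31.96, 47.9 and 34.7 FPKM in NB-CTRL 1, 2 and 3. B-CTRL lay below NB-CTRL in all libraries, with a log2 difference of -1.36 ± 0.42 (-1.66 without B-CTRL 1 and -0.86 without B-CTRL 2). Chd3, another NuRD ATPase and the family's most abundant transcript, had 75.5, 55.6 and 103 FPKM in B-CTRL 1, 2 and 3, against 103, 107 and 123 FPKM in NB-CTRL 1, 2 and 3. B-CTRL 3 lay just above NB-CTRL 1 there, and the log2 difference was -0.54 ± 0.23 (-0.32 without B-CTRL 2). Chd4, the broadly expressed NuRD ATPase, overlapped likewise (41.9 ± 12.2 FPKM in B-CTRL and 54.5 ± 5.37 FPKM in NB-CTRL, log2 difference -0.41 ± 0.22).

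Of the remaining CHD genes, Chd9 had 15.01, 7.99 and 19.0 FPKM in B-CTRL 1, 2 and 3, against 23.1, 21.8 and 24.3 FPKM in NB-CTRL 1, 2 and 3, a log2 difference of -0.78 ± 0.30 (-0.87 without B-CTRL 1 and -0.44 without B-CTRL 2). Chd6 had 11.2, 8.86 and 10.7 FPKM in B-CTRL 1, 2 and 3, against 12.9, 15.9 and 13.1 FPKM in NB-CTRL 1, 2 and 3, a log2 difference of -0.43 ± 0.16. Neither overlapped between groups. The autism gene Chd8 also stood apart (14.4 ± 2.78 FPKM in B-CTRL and 18.3 ± 0.442 FPKM in NB-CTRL, log2 difference -0.35 ± 0.17), as did Chd2, an epilepsy gene (10.5 ± 1.71 FPKM in B-CTRL and 13.3 ± 0.636 FPKM in NB-CTRL, -0.34 ± 0.16). Chd7, the CHARGE syndrome gene, was low and overlapped (2.39 ± 1.06 FPKM in B-CTRL and 3.82 ± 0.752 FPKM in NB-CTRL, -0.64 ± 0.32). The family score was -0.083, -0.66 and 0.043 in B-CTRL 1, 2 and 3, against 0.25, 0.20 and 0.19 in NB-CTRL 1, 2 and 3. Without B-CTRL 2, Chd4, Chd8, Chd2 and Chd7 had -0.21, -0.19, -0.22 and -0.31. Chd1 and Chd1l had -0.40 ± 0.26 and -0.17 ± 0.23, which were -0.11 and 0.035 without B-CTRL 2. The family median was -0.27 without B-CTRL 2, and without B-CTRL 1 it was -0.52.

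SWI/SNF (BAF) subunits differed among themselves. The large Arid subunits, which define the canonical and PBAF forms of the complex, had lower means. Arid1a had 17.3, 19.3 and 27.0 FPKM in B-CTRL 1, 2 and 3, against 31.2, 29.3 and 31.7 FPKM in NB-CTRL 1, 2 and 3, with no overlap and a log2 difference of -0.55 ± 0.18 (-0.42 without B-CTRL 1 and -0.50 without B-CTRL 2). Arid1b (14.8 ± 5.30 FPKM in B-CTRL and 20.6 ± 1.40 FPKM in NB-CTRL) had -0.51 ± 0.25, and Arid2 (5.47 ± 2.25 FPKM in B-CTRL and 8.55 ± 0.339 FPKM in NB-CTRL), the PBAF subunit, had -0.68 ± 0.30 with no overlap. The ATPases Smarca4 (BRG1) and Smarca2 (BRM) had -0.40 ± 0.18 and -0.47 ± 0.23, at 31.8 ± 7.58 FPKM in B-CTRL and 41.5 ± 1.43 FPKM in NB-CTRL and 22.3 ± 6.86 FPKM in B-CTRL and 30.2 ± 1.29 FPKM in NB-CTRL. Smarcc2, the scaffold subunit that prevails in neurons, had 67.8, 47.7 and 81.7 FPKM in B-CTRL 1, 2 and 3, against 91.0, 99.8 and 84.5 FPKM in NB-CTRL 1, 2 and 3, with a narrow gap between the groups and a log2 difference of -0.51 ± 0.21 (-0.55 without B-CTRL 1 and -0.30 without B-CTRL 2). Its paralog Smarcc1, also apart between groups, had a lower level (16.8 ± 3.79 FPKM in B-CTRL and 20.4 ± 0.310 FPKM in NB-CTRL) and -0.30 ± 0.19. Without B-CTRL 2, Arid1b and Arid2 had -0.27 and -0.33, Smarca4 and Smarca2 -0.24 and -0.23, and Smarcc1 -0.11.

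The smaller subunits lay near 0. Smarce1 stood at 59.3 ± 5.07 FPKM in B-CTRL and 61.0 ± 3.01 FPKM in NB-CTRL (log2 difference -0.042 ± 0.12), Smarcd1 at 58.8 ± 16.3 FPKM in B-CTRL and 56.6 ± 4.58 FPKM in NB-CTRL (0.020 ± 0.22) and the neuronal subunit Smarcd3 at 60.6 ± 16.1 FPKM in B-CTRL and 59.2 ± 6.52 FPKM in NB-CTRL (0.00031 ± 0.22). Smarcd1 and Smarcd3 were lowest in B-CTRL 1, and without that library they had 0.25 and 0.24. Smarcb1, a core subunit, was listed at 0 in each library. Its entry lies on an unplaced scaffold and shares its locus with another feature. Because a core subunit and all 37 features of the mitochondrial chromosome were listed at 0, an entry of 0 may be an estimate that failed. Outside SWI/SNF, the ISWI ATPase gene Smarca5 had 0.056 ± 0.19 and the DNA repair helicase gene Smarcad1 had 0.15 ± 0.16 (11.0 ± 1.63 FPKM in B-CTRL and 9.79 ± 0.752 FPKM in NB-CTRL).

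The Arid family as a whole had a median of -0.52 (-0.30 without B-CTRL 2), from 5 lower and 3 higher genes. Arid5b, whose product guides the demethylase PHF2, had 3.46, 1.26 and 3.28 FPKM in B-CTRL 1, 2 and 3, against 4.97, 5.54 and 5.21 FPKM in NB-CTRL 1, 2 and 3, with no overlap and a log2 difference of -0.95 ± 0.32 (-1.15 without B-CTRL 1 and -0.57 without B-CTRL 2). Arid3a had -0.53 ± 0.24 at 1.72 ± 0.530 FPKM in B-CTRL and 2.66 ± 0.449 FPKM in NB-CTRL. Arid3b, Arid4a and Arid5a lay at 0.070 ± 0.30, 0.019 ± 0.15 and 0.037 ± 0.18. Arid5b, Arid3a, Chd3, Chd4, Chd5, Chd6, Chd8, Kdm2a, Kmt2e, Setd4, Dnmt3a, Hdac4, Sirt7 and Smarca4 share a locus entry with another feature. The values of these 14 tested members are uncertain. Among the 62 tested members with a locus of their own the median log2 difference was -0.23, and 39 lay below 0.

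**Figure D3:**
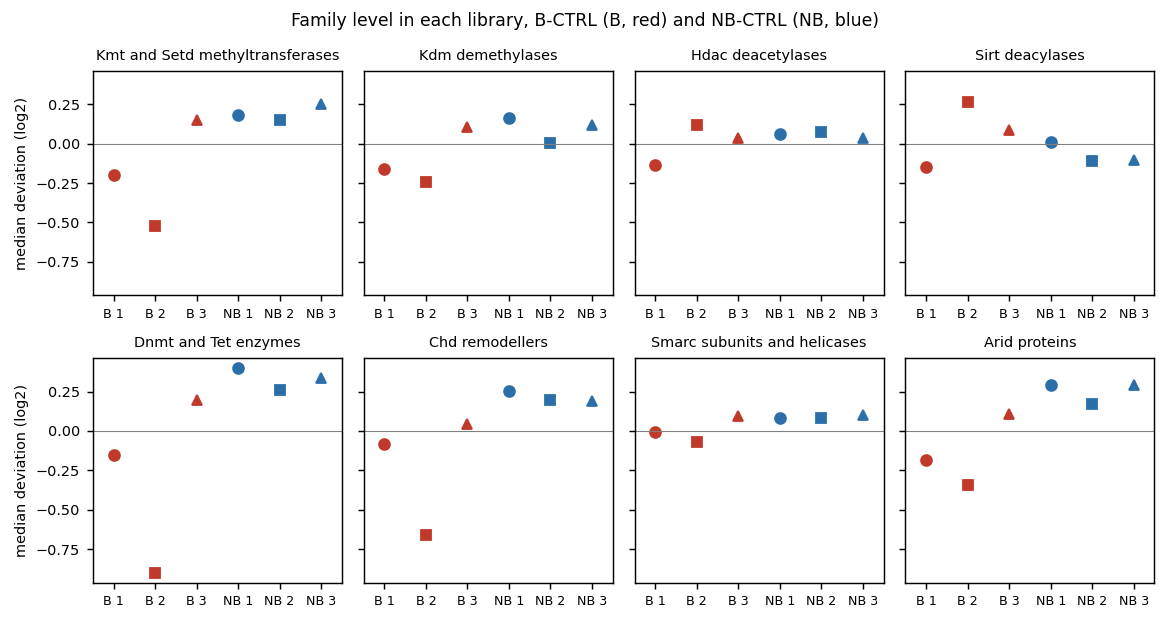
Median log2 deviation (y axis) of each family's tested members from their 6-library means, by library, with B-CTRL libraries left and red and NB-CTRL libraries right and blue. B-CTRL 2 is the lowest library in 6 of 8 families and the highest in Hdac deacetylases and Sirt deacylases.

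By library the families were unequal. The scores of the CHD, Arid, and Dnmt and Tet families were lower in each B-CTRL library than in each NB-CTRL library. For Dnmt and Tet genes the scores were -0.15, -0.90 and 0.19 in B-CTRL 1, 2 and 3, against 0.40, 0.26 and 0.33 in NB-CTRL 1, 2 and 3. For Smarc genes they were -0.0094, -0.072 and 0.092 in B-CTRL 1, 2 and 3, against 0.081, 0.079 and 0.10 in NB-CTRL 1, 2 and 3. For Kmt and Setd genes B-CTRL 3 and NB-CTRL 2 were nearly level (-0.20, -0.52 and 0.15 in B-CTRL 1, 2 and 3, against 0.18, 0.15 and 0.25 in NB-CTRL 1, 2 and 3). Hdac scores overlapped, with the lowest in B-CTRL 1 (-0.13) and the highest in B-CTRL 2 (0.12).

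A further 8 members were not tested because their mean was under 0.5 FPKM. These were Dnmt3b, Dnmt3l, Kdm4d, Kdm4dl1, Hdac1l, Arid3c and Arid4b, besides Smarcb1. Dnmt3b, a de novo methyltransferase of early development, had at most 0.247 FPKM in B-CTRL, against at most 0.366 FPKM in NB-CTRL. Arid4b, a partner of Sin3 and HDAC1 or HDAC2, stood at 0.0943 ± 0.0580 FPKM in B-CTRL and 0.0976 ± 0.00744 FPKM in NB-CTRL. Whether such low entries are estimates that failed was not tested. Dnmt3l and Kdm4dl1 were listed at 0 throughout. Tested members ranged in 6-library mean from 0.867 FPKM (Tet1) to 255 FPKM (Sirt2).

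Locus length went along with the differences, in all features and in the members. Over all features with a locus of their own, the median log2 difference was 0.13 in the shortest of 8 length classes and -0.23 in the longest. In that longest class (84.8 kb and over) the 11 such members had a median of -0.51. In the next class (46.0 to 84.8 kb) the members' median was -0.24 (18 members) and that of all features -0.13. In the class from 19.1 to 28.6 kb it was 0.13 (9 members) beside 0.015. In the classes up to 19.1 kb, from the shortest on, the members' medians were 0.10, -0.14, -0.094 and -0.0081 (1, 3, 5 and 6 members). Those of all features were 0.13, 0.11, 0.083 and 0.054. Single members with short loci lay on both sides of 0. Kdm6b (7.09 kb), Kmt2b (19.0 kb) and Setd1b (23.7 kb) were among the lowest, while Setd6 (2.996 kb) and Sirt6 (5.465 kb) lay at 0.10 and 0.12. Locus length includes introns, and transcript length was not analysed here. When each library's trend with locus length was removed, the members' median was -0.17, and 12 were lower and 0 higher at an unadjusted p under 0.05, beside 5.35% of features lower. The part of library quality in these differences was not tested.

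**Figure D4:**
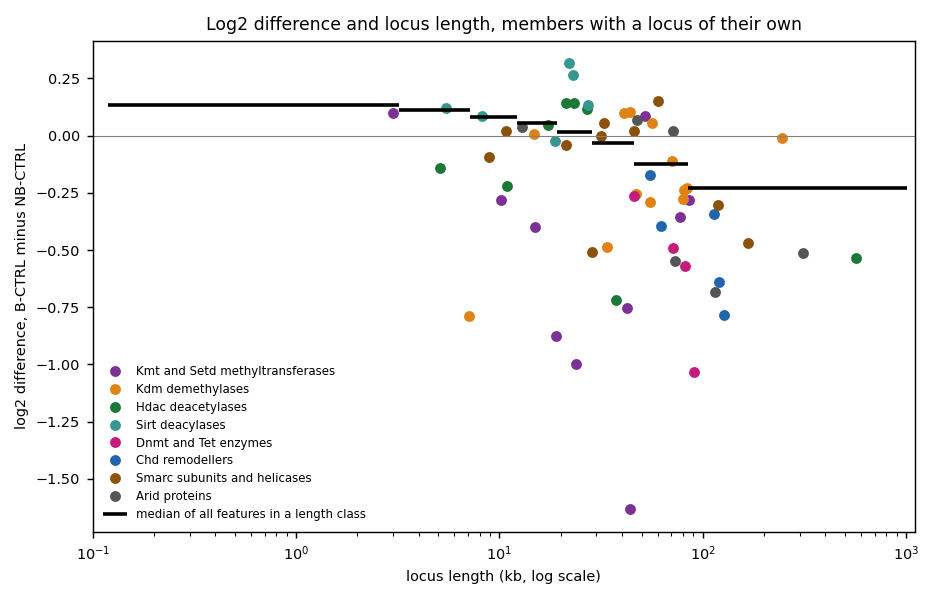
Log2 difference (B-CTRL minus NB-CTRL, y axis) against locus length in kb (x axis, log scale) for the 62 tested members with a locus of their own, coloured by family, with black bars for the median of all features in each of 8 length classes. The bars step down from 0.13 to -0.23, and the 11 members in the longest class have a median of -0.51.

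The partner genes of these enzymes, from 10 lists that hold no member, showed lower levels in part. Together 97 of 150 tested partner entries, among which Rcor1 has a pair, lay below 0, with a median log2 difference of -0.17. At an unadjusted limma p under 0.05, 18 were lower and 2 higher (6.07% and 6.25% of all tested features), and 0 passed the adjusted threshold. The list of INO80, ISWI and other remodelling genes was lowest, with 12 of 14 below 0, a median of -0.45 (-0.30 without B-CTRL 2) and 5 lower at an unadjusted p under 0.05, beside 6.07% of all features. Srcap, the ATPase that deposits H2A.Z, had 10.5, 8.20 and 15.6 FPKM in B-CTRL 1, 2 and 3, against 20.2, 20.1 and 19.9 FPKM in NB-CTRL 1, 2 and 3. The NB-CTRL values lay close together and above each B-CTRL value, with a log2 difference of -0.83 ± 0.23. Ep400, a related ATPase, had 9.26 ± 2.11 FPKM in B-CTRL and 14.2 ± 0.553 FPKM in NB-CTRL and -0.61 ± 0.19. Among 11 bromodomain readers, which bind acetylated histones, 9 lay below 0 with a median of -0.29 (-0.18 without B-CTRL 2). Brd3 had 9.27 ± 2.75 FPKM in B-CTRL and 13.9 ± 0.914 FPKM in NB-CTRL and -0.60 ± 0.23.

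Of 14 histone acetyltransferases, 9 lay below 0 with a median of -0.13. Ep300, the p300 coactivator gene, had 4.75, 0.974 and 6.40 FPKM in B-CTRL 1, 2 and 3, against 8.98, 8.76 and 9.20 FPKM in NB-CTRL 1, 2 and 3, and B-CTRL 2 stood far below the rest. Its log2 difference was -1.33 ± 0.54 (-0.66 without B-CTRL 2). Kat6a, an acetyltransferase of the MYST group, had 6.29 ± 2.25 FPKM in B-CTRL and 9.77 ± 0.346 FPKM in NB-CTRL and -0.66 ± 0.27. Of 16 other lysine methyltransferases, 11 were lower with a median of -0.22. Dot1l, which methylates lysine 79 of histone H3, had 6.57 ± 3.22 FPKM in B-CTRL and 12.8 ± 1.93 FPKM in NB-CTRL and -1.00 ± 0.32, and Prdm2 had 12.4 ± 2.34 FPKM in B-CTRL and 16.4 ± 1.47 FPKM in NB-CTRL and -0.40 ± 0.17. Polycomb genes, which maintain repression, were lower in 20 of 26 with a median of -0.19. Asxl1 had 7.77 ± 1.37 FPKM in B-CTRL and 11.1 ± 0.518 FPKM in NB-CTRL and -0.50 ± 0.16, and Jarid2, a recruiter of the methylating complex, had 8.73 ± 2.85 FPKM in B-CTRL and 13.7 ± 1.63 FPKM in NB-CTRL and -0.67 ± 0.25. Without B-CTRL 2, Kat6a had -0.35, Jarid2 -0.43 and Brd3 -0.35.

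The corepressor partners of the deacetylases centred on 0 (12 of 23 entries lower, median -0.029). The CoREST gene Rcor1 has a pair of entries that lay on opposite sides of 0. ENSRNOG00000008067 had 3.35 ± 1.81 FPKM in B-CTRL and 5.86 ± 0.977 FPKM in NB-CTRL and -0.84 ± 0.38, and the more abundant ENSRNOG00000049783 had 7.29, 10.6 and 8.64 FPKM in B-CTRL 1, 2 and 3, against 8.42, 6.48 and 8.66 FPKM in NB-CTRL 1, 2 and 3, with a log2 difference of 0.16 ± 0.19. The other BAF and PBAF subunits had a median of 0.032 with 10 of 16 above 0, and the median was -0.057 without B-CTRL 2. Actl6a had 8.45 ± 1.81 FPKM in B-CTRL and 6.595 ± 0.283 FPKM in NB-CTRL and 0.32 ± 0.18, and the neuronal subunit Ss18l1 had 10.3 ± 4.16 FPKM in B-CTRL and 14.2 ± 0.747 FPKM in NB-CTRL and -0.52 ± 0.29 (0.16 and -0.19 without B-CTRL 2). Partners of the Kmt2 and Setd1 enzymes in COMPASS had a median of -0.083 with 7 of 10 lower (-0.031 without B-CTRL 1). Dpy30, a small COMPASS subunit, was higher on average (63.2 ± 17.3 FPKM in B-CTRL and 44.9 ± 2.74 FPKM in NB-CTRL, 0.45 ± 0.21, and 0.27 without B-CTRL 2) and Paxip1 was lower (12.5 ± 1.02 FPKM in B-CTRL and 14.9 ± 0.707 FPKM in NB-CTRL, -0.24 ± 0.13).

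Arginine methyltransferases had a median of 0.094, with 4 of 7 above 0. Prmt3 had 16.8 ± 2.09 FPKM in B-CTRL and 13.4 ± 0.281 FPKM in NB-CTRL and 0.30 ± 0.14, and Prmt1, the main arginine methyltransferase, had 93.4 ± 3.71 FPKM in B-CTRL and 80.8 ± 8.45 FPKM in NB-CTRL and 0.21 ± 0.13. Both had B-CTRL wholly above NB-CTRL. Of the partner genes named with values, Ep300, Dot1l, Prdm2, Prmt3, Jarid2, Actl6a, Srcap, Ep400, Mbd6 and Brd3 share a locus entry with another feature and are uncertain. Of 13 methyl-CpG readers and demethylation genes 8 lay below 0 with a median of -0.10 (-0.028 without B-CTRL 1). Gadd45g, an activity-induced gene of the DNA demethylation pathway, had 13.2, 19.2 and 22.8 FPKM in B-CTRL 1, 2 and 3, against 10.9, 9.40 and 11.96 FPKM in NB-CTRL 1, 2 and 3, all above NB-CTRL, with a log2 difference of 0.72 ± 0.22. Mbd6 lay wholly below, at 9.28 ± 2.27 FPKM in B-CTRL and 14.5 ± 1.21 FPKM in NB-CTRL and -0.64 ± 0.20.

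Marker levels of other cell types are given beside the members' differences, since chromatin modifiers are made in most cells. The 6 microglial markers summed to 198 to 277 FPKM in B-CTRL, against 193 to 215 FPKM in NB-CTRL. Of these markers, 2 were higher in B-CTRL at an unadjusted limma p under 0.05, beside 6.25% of all tested features. By log2 difference 5 lay above 0, with Csf1r only at 0.029, and Cx3cr1 lay below at -0.22. The 6 astrocyte markers summed to 676 to 932 FPKM in B-CTRL, against 769 to 852 FPKM in NB-CTRL. The 6 neuronal markers summed to 1792 to 2032 FPKM in B-CTRL, against 1654 to 2097 FPKM in NB-CTRL, with Eno2 at or near 0 throughout. The 5 measured endothelial markers summed to 65.9 to 81.6 FPKM in B-CTRL, against 52.1 to 92.0 FPKM in NB-CTRL. These ranges overlapped, while the choroid plexus sum was 7236 FPKM in B-CTRL 1 and at most 29.0 FPKM in each other library. The members' median was -0.28 with B-CTRL 1 and -0.29 without it.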

How the data were processed

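RNA from amygdala was sequenced as poly(A)-selected, directional libraries. The deposited FPKM values were made by the authors, with 1 column per library per the file headers. STAR 2.5.4b, Cuffdiff 2.2.1 and build rn6 are listed in the submitters' processing notes. Their settings, the annotation release, read filters and strand handling are each not given in the sources used here. Fragment counts were not used here, so depth is known only relatively, from features under 1 FPKM that are at 0 in at least 2 libraries. Between 28.8% and 40.1% of these lay within 0.05 log2 of the most frequent ratio to NB-CTRL 1, so that estimate is rough.

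From the values log2(FPKM + 0.5) was computed wherever the 6-library mean reached 0.5 FPKM. This scale understates fold changes at low levels. The comparison used R 4.3.3 and limma 3.58.1 (2-sided, intensity trend, no covariate, 4 residual and 2.97 prior degrees of freedom) over all 14043 features, with Benjamini-Hochberg adjustment at 0.05. The code was tested on simulated data. The members and lists were chosen with earlier results of these data known. The rule for named genes took, among members reaching a group mean of 1 FPKM, the 10 lower and the 10 higher ones by p, the 3 of highest mean, the highest and the lowest-p member of each family, and up to 2 genes per partner list (some are not reported here), and the other members named were chosen after their values were seen. Per-gene SD values are over 3 libraries. Summed over all features, FPKM came to 579141, 641725 and 583803 in B-CTRL 1, 2 and 3, against 536937, 522422 and 527081 in NB-CTRL 1, 2 and 3. Median scaling, quantile normalization, other pseudocounts and filters, moderation settings, library weights, a replicate block, removal of the length trend and leaving out each library were tried as alternatives.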

Additional observations from a re-analysis of the deposited data

How the results depend on the processing

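No member passed the adjusted threshold under any of the 18 alternatives, and over all features 0 passed except 1 feature, SNORA70, without NB-CTRL 3 (range 0 to 1 over refits that leave out 1 library). The count of members lower at an unadjusted limma p under 0.05 was 15 (6.07% of features). Under other settings with all features it was between 11 and 22 (4.27% to 7.38% of features). It was 9 with features of their own locus only (5.64% of features). Over the refits that leave out 1 library it was 3 to 32 (1.93% to 13.1% of features), so the share of all features called moves too. The count higher was 0 (6.25% of features). Over those refits it was 0 to 1 (1.74% to 12.9% of features), with Sirt3 without B-CTRL 1 and Hdac1 without B-CTRL 3. Over those refits, members with B-CTRL wholly below NB-CTRL numbered 27 to 41 (14.6% to 23% of features). Those wholly above numbered 1 to 10 (13.6% to 24% of features). Both counts are a check chosen after seeing the data. The members' median (-0.28) ranged from -0.40 to -0.14 over those refits and from -0.29 to -0.17 under the other settings. Median scaling raised the median of all features to 0.087, and the members' median was then -0.19 with 48 of 76 below 0. Family medians ranged, over refits that leave out 1 library, from -0.72 to -0.30 for Arid, -0.27 to -0.0063 for Hdac, -0.32 to -0.062 for Kdm, -0.13 to -0.052 for Smarc, -0.57 to -0.27 for CHD, -0.81 to -0.26 for Dnmt and Tet, -0.51 to -0.23 for Kmt and Setd, and 0.017 to 0.26 for Sirt genes. The Arid median was -0.32 with no filter, -0.23 with the length trend removed and -0.25 with own loci. The Hdac median was -0.049 with median scaling, -0.033 with library weights and -0.048 with own loci. The Kdm median was -0.078 with the length trend removed. The Smarc median was 0.055 with median scaling and -0.14 with library weights. Sirt5 turned to -0.016 and Hdac11 to -0.16 with quantile normalization, and Hdac11 to -0.033 with library weights. Over refits that leave out 1 library Hdac11 ranged from -0.044 to 0.19 and Kdm3a from -0.016 to 0.19. The causes were not tested. Deviations of same-numbered libraries were weakly correlated (-0.22, 0.072 and 0.15 for numbers 1, 2 and 3). With 3 libraries in a group, such correlations cannot show whether the number marks a pair or a batch. With the replicate block 14 members were lower (5.95% of features) and 0 higher at an unadjusted limma p under 0.05. Of the 3 B-CTRL libraries, 1 correlated best with its own number. Low genes such as Tet1 are the least certain, as depth is unknown.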

Other observations

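Chromatin modifier genes on the sex chromosomes were left out of the members by their position. Kdm5c, the X-linked demethylase of lysine 4 of histone H3, had 29.5, 18.1 and 32.2 FPKM in B-CTRL 1, 2 and 3, against 33.5, 29.8 and 33.4 FPKM in NB-CTRL 1, 2 and 3, with a log2 difference of -0.31 ± 0.22 (SE). Its Y-linked counterpart Kdm5d had 0.0286, 8.79 and 8.37 FPKM in B-CTRL 1, 2 and 3, against 9.38, 10.2 and 9.39 FPKM in NB-CTRL 1, 2 and 3. The Y-linked feature named Kdm6a was listed at 0 in B-CTRL 1 and stood at 3.33 to 4.17 FPKM in the other libraries. Without B-CTRL 1 the log2 differences of these Y-linked genes were -0.16 and 0.13. The X-linked deacetylase gene Hdac8 had a log2 difference of 0.12 ± 0.15 and the ISWI ATPase gene Smarca1 had 0.084 ± 0.13. Hdac6, the cytoplasmic tubulin deacetylase, had at most 0.175 FPKM in B-CTRL, against at most 0.162 FPKM in NB-CTRL. Whether a value so near 0 is the transcript's level or an estimate that failed was not tested.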
